A study of Mus musculus with 54 samples.

Results

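The genes described here make, conjugate and move bile acids in the liver: Cyp7a1, Cyp8b1, Cyp27a1, Cyp7b1, Baat, Slc10a1, Slc10a2, Abcb11, Abcb4 and Slco1b2. They were taken by symbol from a table of 20162 rows, in which each of the 10 stood on 1 row, and all 10 were expressed highly enough to be tested. Liver RNA came from the medial lobe of 54 male wildtype (WT) C57BL/6J mice. All of them, the controls included, ate a high-fat diet from 8 weeks of age and received a daily gelatin pellet for 20 weeks. The pellet held no di-isononyl phthalate (DINP, a plasticizer) in 14 control mice, 1.5 mg/kg bw/d in 13 mice, 15 mg/kg bw/d in 13 mice and 150 mg/kg bw/d in 14 mice; daily doses per body weight are written here as mg/kg. No sample analysed here was on a standard diet or female. The comparisons ask whether oral DINP changed the expression of these genes in the liver of obese mice, and whether the doses differed from each other.

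Bile acids are made from cholesterol in hepatocytes by 2 routes. The classic route starts with Cyp7a1, its rate-limiting enzyme, and Cyp8b1 then sends the product towards cholic acid. The alternative route starts with Cyp27a1 and goes on through Cyp7b1, an oxysterol hydroxylase. Baat joins the finished acids to taurine in the mouse. Slc10a1 (NTCP) and the OATP carrier Slco1b2 take bile acids up from blood, Abcb11 (BSEP) pumps them into the canaliculus, and Abcb4 (MDR2) flips phosphatidylcholine into bile beside them. Slc10a2 (ASBT) is best known from the ileum, the renal proximal tubule and bile duct cells, where it takes bile acids back up. The nuclear receptor FXR (Nr1h4) senses bile acids and, through SHP (Nr0b2) and through Fgfr4 with Klb, lowers Cyp7a1 and Cyp8b1.

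The libraries read the 3′ ends of polyadenylated RNA, and the values behave as rounded TPM multiplied by 1 factor per sample, so that a value of about 1 is the smallest step above 0. The sequencing depth is unknown from these values, and no counting interval can be given. Differences are given on the log2(value + 1) scale, which understates the change of low genes, and a gene passed where limma's p, adjusted by Benjamini-Hochberg over the 11431 genes tested, was under 0.05. A gene that passed and also differed by more than 0.5 was called a differentially expressed gene (DEG). Each mouse is 1 sample. In 8 libraries the summed value of 88 genes of cytosolic ribosomal proteins lay between 19619 and 26728, apart from the other 46 libraries, where it was at most 17610. They were 1 of 14 controls (replicate 1), none of 13 mice at 1.5, 6 of 13 at 15 (replicates 4 to 9) and 1 of 14 at 150 mg/kg (replicate 10). In 6 libraries, 1 of them among these 8 (control replicates 8 and 9, replicates 4, 9 and 13 at 1.5, replicate 7 at 15 mg/kg) the smallest step of the table was under 0.9. The summed value of 15 mitochondrially encoded genes had a median of 320496 in controls, 294730 at 1.5, 300882 at 15 and 346972 at 150 mg/kg. No label marks these libraries as a batch.

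By its mean over all mice, the highest value was that of Slco1b2, at 1158, followed by Abcb4 at 407, Slc10a1 at 189, Cyp8b1 at 149.9, Cyp27a1 at 120.4, Baat at 55.4, Abcb11 at 47.3, Cyp7b1 at 37.9, Cyp7a1 at 22.3 and Slc10a2 at 9.29. These are scaled TPM, which divide by transcript length although the libraries read transcript ends, so levels of different genes are only roughly comparable. From Slc10a1 to Cyp27a1 and from Baat to Slc10a2, the ranges of neighbours in this order overlapped in every group. Those of Slco1b2 and Abcb4 overlapped in controls and at 15 mg/kg, those of Abcb4 and Slc10a1 in all groups but that at 1.5 mg/kg, and those of Cyp27a1 and Baat at 15 mg/kg. Mice of 1 group differed most in Cyp7a1: its within-group SD was 1.28 on the log2 scale, larger than that of 98.7% of the genes tested. Cyp7b1 (SD 0.75) and Cyp8b1 (SD 0.70) varied more than 93.7% and 92.4% of the genes, and Slc10a1 (SD 0.60) more than 87.9%. Baat was the steadiest, with an SD of 0.22 that was larger than that of 14.9% of the genes, and Abcb11 (SD 0.29) and Cyp27a1 (SD 0.31) varied more than 38.8% and 44.9% of the genes.

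**Figure D1:**
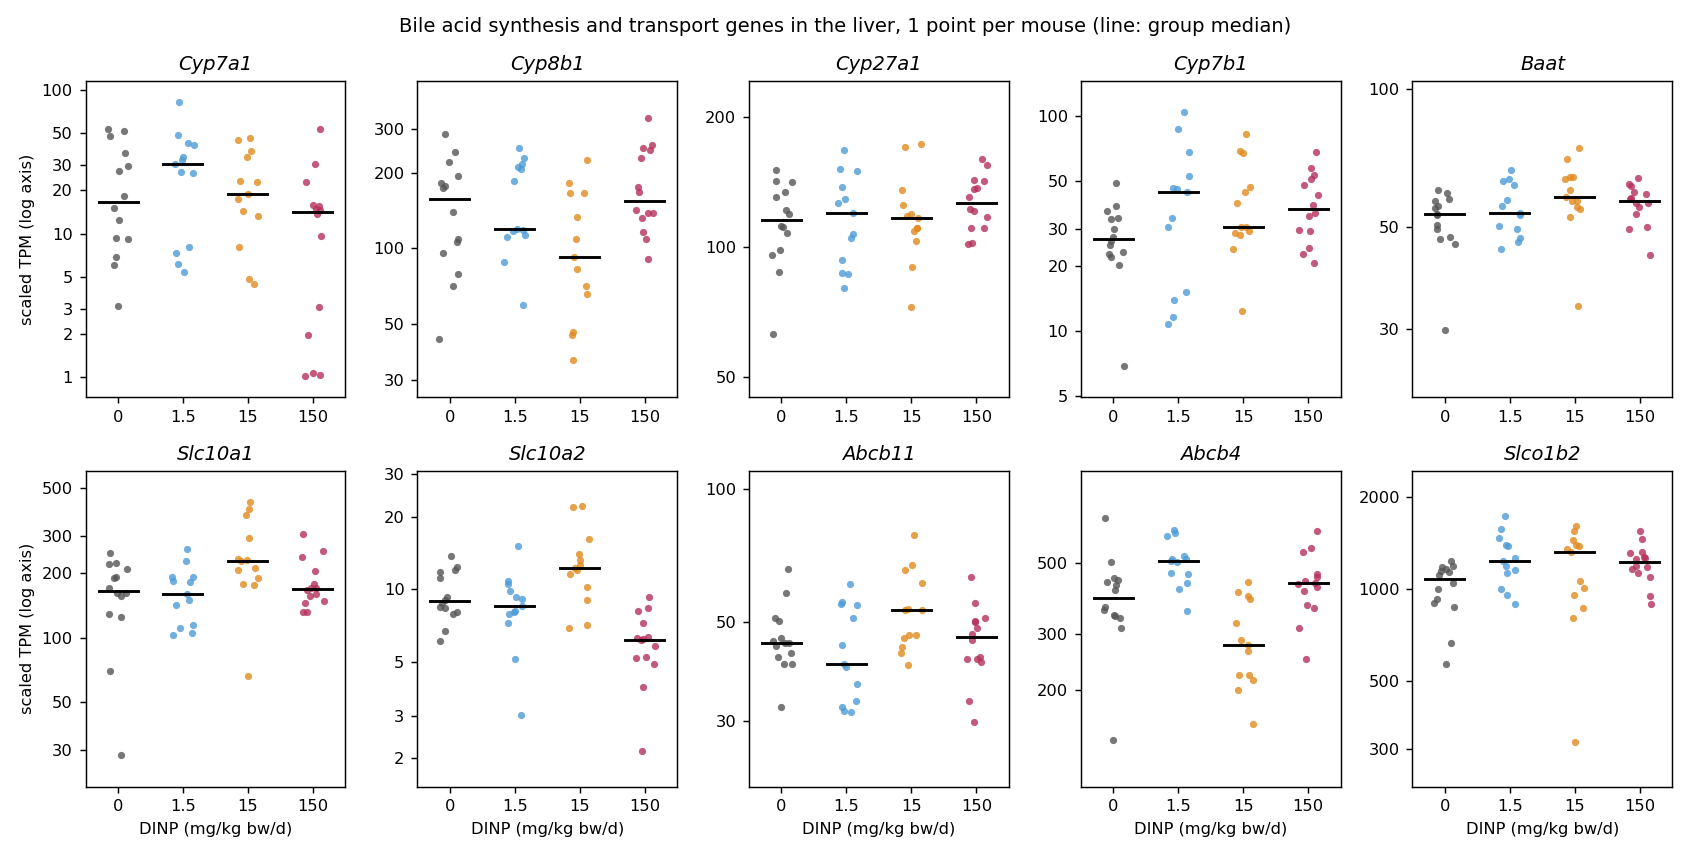
Value of each gene in each mouse, in scaled TPM on a log axis, by DINP dose in mg/kg, with the group median as a line. Slc10a2 is lowest at 150 mg/kg (median 6.21) and Abcb4 lowest at 15 mg/kg (median 277), while 4 mice at 150 mg/kg and no control have Cyp7a1 values at or below 3.

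Few of the 10 genes differed from control. At 1.5 mg/kg none passed the test in limma (1.2% of all genes tested did), and 2 had an unadjusted p under 0.05, Abcb4 and Slco1b2. At 15 mg/kg, 1 of 10 passed, Abcb4, which was lower (14.2% of all genes passed, and 6.61% passed as lower). At 150 mg/kg, 1 of 10 passed, Slc10a2, which was lower and a DEG (2.17% of all genes passed, and 0.192% were DEGs with a lower value). The median difference of the 10 genes was 0.10, 0.16 and 0.16 in the 3 doses, beside 0.00, -0.00 and -0.01 for all genes tested. Among the 4 groups, Slc10a2 (adjusted p = 0.000107) and Abcb4 (adjusted p = 0.000291) passed limma's F test, 2 of 10 beside 26.7% of all genes.

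**Figure D2:**
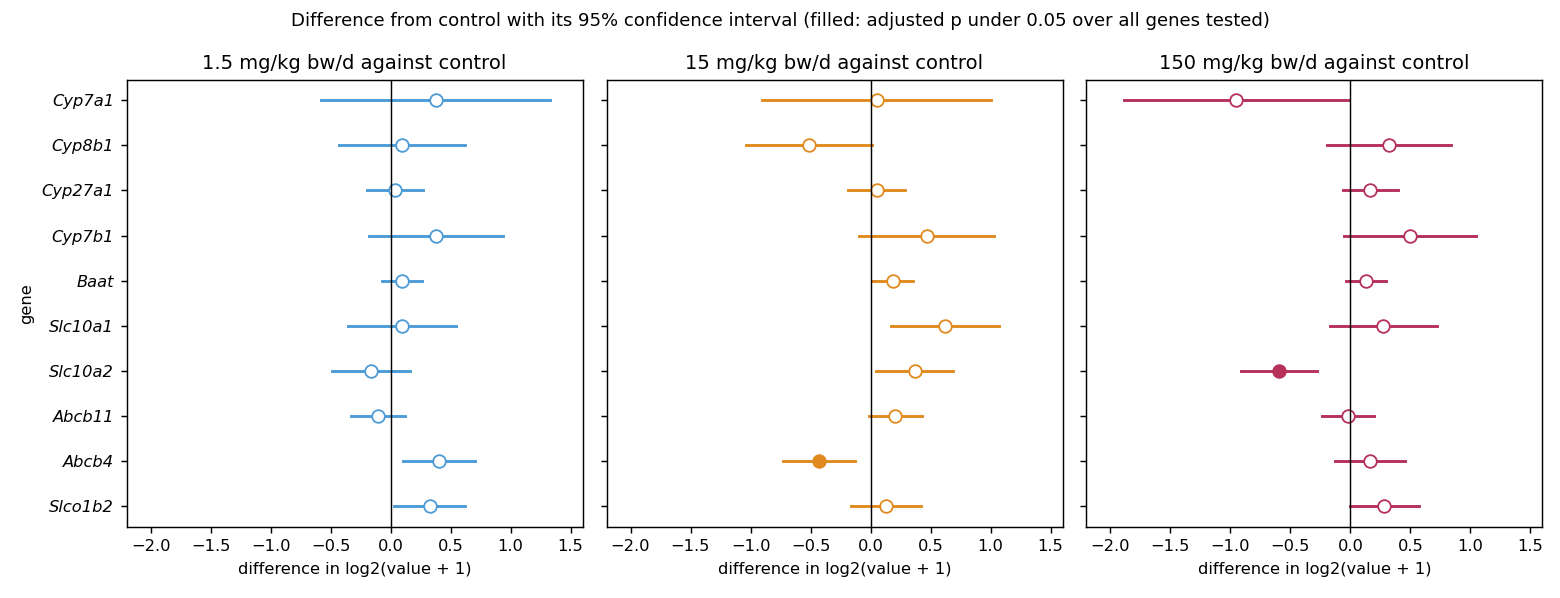
Difference of each dose group from control in log2(value + 1), with its 95% confidence interval, for the 10 genes. The filled points passed the test: Abcb4 at 15 mg/kg (-0.43) and Slc10a2 at 150 mg/kg (-0.60), and the interval of Cyp7a1 at 150 mg/kg runs from -1.88 to -0.02.

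More of the genes passed in 2 of the 3 comparisons between doses, at shares not far from those of all genes. Between 15 and 1.5 mg/kg, 3 of 10 passed (21.4% of all genes), with Slc10a2 and Abcb11 higher (10.9% of all genes) and Abcb4 lower (10.5%) at the larger dose. Between 150 and 15 mg/kg, 3 of 10 passed (20% of all genes), with Cyp8b1 and Abcb4 higher (9.85% of all genes) and Slc10a2 lower (10.1%) at the larger dose. Between 150 and 1.5 mg/kg none passed in limma (4.61% of all genes), and 2 had an unadjusted p under 0.05, Cyp7a1 and Slc10a2. The first and the second of these comparisons share the mice at 15 mg/kg, so their counts are not independent.

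Cyp7a1 lies on chromosome 4 (6265612 to 6275633, minus strand; positions of all 10 genes follow GENCODE M21, build GRCm38). Its lowest, median and highest values were 3.12, 16.6 and 53.3 in the 14 controls and 5.37, 30.4 and 82.0 in the 13 mice at 1.5 mg/kg. They were 4.43, 18.9 and 46.4 at 15 and 1.02, 14.1 and 53.4 at 150 mg/kg. The 150 mg/kg group was split: 4 of its 14 mice lay at or below 3, under the lowest mouse of each other group. Replicate 12, at 3.11, lay just under the lowest control (replicate 1, 3.12). These 2 values differed only by the step of their sample (1.035 and 1.039). The remaining 9 mice lay within the control range or, in 1 mouse, just above it. The mean was 14.2 ± 14.4 (SD, n = 14) against 23.3 ± 17.8 in controls (SD, n = 14). The difference of -0.95 (SE 0.47) did not pass (adjusted p = 0.34), and taken between group medians it was -0.22. At 1.5 and 15 mg/kg it was 0.38 and 0.05, with intervals of -0.58 to 1.33 and -0.90 to 1.00. Against 1.5 mg/kg the difference at 150 mg/kg was -1.33 (adjusted p = 0.10). It was -1.52 and passed (adjusted p = 0.034) without the 8 libraries of high ribosomal protein values. At 150 mg/kg this left out only replicate 10, the mouse with the highest value of its group (53.4). No fit that left out 1 mouse passed for this comparison (-1.52 to -1.15, lowest adjusted p = 0.052, limma).

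Cyp8b1 (chromosome 9, 121914356 to 121916305, minus strand), the sterol 12-alpha-hydroxylase that sets the share of cholic acid, had its lowest values at 15 mg/kg. The lowest, median and highest values were 43.6, 157 and 285 in controls and 59.4, 119.8 and 252 at 1.5 mg/kg. They were 35.7, 92.3 and 226 at 15 and 90.8, 155 and 332 at 150 mg/kg. All groups overlapped, but 13 of 14 mice at 150 mg/kg lay above the median of the 15 mg/kg group, and 5 lay above its highest mouse. The mean was 181 ± 71.0 (SD, n = 14) at 150 and 109 ± 60.3 (SD, n = 13) at 15 mg/kg, a difference of 0.83 (SE 0.26), which passed (adjusted p = 0.018). It was 0.84 without the libraries of high ribosomal protein values, where it did not pass (adjusted p = 0.086). Against control, the differences of 0.10, -0.51 and 0.32 in order of dose did not pass (adjusted p = 0.93, 0.20 and 0.62).

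The promoter of Cyp8b1 is shown because FXR is known to lower this gene by way of SHP, which acts on the factors HNF4 and LRH-1. In this window of RefSeq on GRCm38.p6 (chr9:121916256-121916555, minus strand, 250 bases before to 50 after the start) the capitals mark CAAAGTCC, letters known to be bound by HNF4, and CAAGGNC, letters bound by LRH-1, which share 1 base.

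Cyp8b1: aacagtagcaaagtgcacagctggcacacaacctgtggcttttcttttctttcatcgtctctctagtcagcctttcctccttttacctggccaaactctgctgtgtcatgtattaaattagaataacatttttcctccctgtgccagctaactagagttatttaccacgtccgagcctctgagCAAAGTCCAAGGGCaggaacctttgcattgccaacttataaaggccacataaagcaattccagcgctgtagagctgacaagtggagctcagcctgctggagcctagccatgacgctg

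Both strands were searched, in the windows matched to 7 of the 10 genes (all but Cyp7a1, Cyp7b1 and Baat) and in all 32851 windows of the RefSeq table. CAAAGTCC was in 1.42% of all windows and, among the 7 genes, in that of Cyp8b1, at bases 184 to 191. CAAGGNC was in 17.8% of all windows and, among these genes, also in that of Cyp8b1, at bases 191 to 197. The motifs were chosen with the sequences in view, and a match describes letters, not binding. The values of the LRH-1 gene and of the receptor are given with the regulators.

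The enzymes of the alternative route and the conjugating enzyme did not pass in any comparison. Cyp27a1 (chromosome 1, 74713574 to 74737892, plus strand) had group medians between 115.5 and 126, and its differences from control were 0.04, 0.05 and 0.17 in order of dose. Cyp7b1 (chromosome 3, 18071950 to 18243338, minus strand) had medians of 26.9 in controls, 44.3 at 1.5, 30.5 at 15 and 37.0 at 150 mg/kg, with differences of 0.38, 0.47 and 0.50 (adjusted p = 0.63, 0.28 and 0.42). Its highest control was at 48.8, and 4, 3 and 4 mice of the dose groups lay above it. At 1.5 mg/kg the mice covered the widest range, from 10.8 to 104. Baat (chromosome 4, 49489422 to 49506557, minus strand) had medians of 53.3, 53.8, 58.2 and 57.0 in order of dose and differences of 0.10, 0.19 and 0.13. At 15 mg/kg, 11 of 13 mice had more Baat than the median control, with an adjusted p of 0.14. It was 0.33 above control there and passed (adjusted p = 0.024) without the 8 libraries of high ribosomal protein values, and it also passed without replicate 7 of that dose alone (0.25, adjusted p = 0.020).

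Slc10a1 (chromosome 12, 80953183 to 80968705, minus strand), the sodium-dependent uptake carrier, had its highest values at 15 mg/kg. The lowest, median and highest values were 28.3, 166 and 249 in controls and 103, 161 and 259.8 at 1.5 mg/kg. They were 66.5, 229 and 431 at 15 and 133, 169 and 307 at 150 mg/kg. In the 15 mg/kg group, 12 of 13 mice lay above the control median, 4 of them above the highest control, and the remaining mouse, replicate 7, lay far below. Those 4 (replicates 5, 6, 8 and 9), replicate 7 and the highest control (replicate 1) were among the 8 libraries of high ribosomal protein values. So was the highest mouse at 150 mg/kg (replicate 10). The mean was 248 ± 102 (SD, n = 13) against 164 ± 60.8 (SD, n = 14), and the difference of 0.62 (SE 0.22) did not pass (adjusted p = 0.054). Without replicate 7 of that dose it was 0.77 and passed (adjusted p = 0.0091), and without the 6 libraries of small steps it was 0.48 and passed (adjusted p = 0.025). Without the 8 libraries of high ribosomal protein values it was 0.57 and did not (adjusted p = 0.15). Over the settings that did not leave out mice 1 at a time, it lay between 0.33 and 0.64 and passed in 3.

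Slco1b2 (chromosome 6, 141629518 to 141686646, plus strand), the sodium-independent carrier, had group medians of 1079 in controls, 1230.5 at 1.5, 1317 at 15 and 1223 at 150 mg/kg. In each dose group 6 or 7 mice lay above the highest control, at 1232, and the single mice at 317 (replicate 7 at 15 mg/kg) and 569 (control replicate 8) were the lowest of their groups. The differences from control of 0.32, 0.13 and 0.28 did not pass (adjusted p = 0.34, 0.61 and 0.37). The difference at 15 mg/kg was 0.52 and passed (adjusted p = 0.0060) without the 8 libraries of high ribosomal protein values, which left 7 mice at that dose and 13 controls.

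Slc10a2 (chromosome 8, 5083219 to 5105351, minus strand) was the lowest of the 10 genes by mean value and differed most clearly between 150 and 15 mg/kg. The lowest, median and highest values were 6.12, 8.92 and 13.8 in controls and 3.02, 8.58 and 15.2 at 1.5 mg/kg. They were 6.95, 12.2 and 22.2 at 15 and 2.14, 6.21 and 9.31 at 150 mg/kg. Of the 14 mice at 150 mg/kg, 13 lay below the control median and 6 below the lowest control, and 14 of 14 lay below the median of the 15 mg/kg group, 10 of them below its lowest mouse. The mean was 6.10 ± 1.85 (SD, n = 14) at 150 and 9.57 ± 2.28 (SD, n = 14) in controls, a difference of -0.60 (SE 0.16, interval -0.91 to -0.28) that was 33.9% on the scale of value + 1 and passed (adjusted p = 0.028). Against 15 mg/kg, where the mean was 13.0 ± 4.76 (SD, n = 13), the difference was -0.96 (SE 0.16, adjusted p = 1.9e-05).

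The 15 mg/kg mice in turn lay above those at 1.5 mg/kg, whose mean was 8.69 ± 2.88 (SD, n = 13), by 0.53 (SE 0.16, adjusted p = 0.016), with 11 of 13 above their median. Against control the difference at 15 mg/kg was 0.37 and did not pass (adjusted p = 0.12), and that at 1.5 mg/kg was -0.16 (adjusted p = 0.75). The difference between 150 and 15 mg/kg passed in every fit that left out 1 mouse (-1.02 to -0.88) and without the libraries of high ribosomal protein values (-0.82, adjusted p = 0.0033). That between 150 mg/kg and control did not pass without control replicate 8 (-0.56, adjusted p = 0.053), without replicate 7 at 150 mg/kg (-0.51, adjusted p = 0.064) or without the 6 libraries of small steps (-0.52, adjusted p = 0.063). That between 15 and 1.5 mg/kg was 0.38 without the libraries of high ribosomal protein values and did not pass (adjusted p = 0.27).

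The promoter of Slc10a2 is shown because this gene had the smallest adjusted p among the 10 in the test across groups. In its window (chr8:5105238-5105537, minus strand) the capitals mark a match to letters bound by HNF1, GTTAAT and ATT with 1 base between them, read on the opposite strand, at bases 30 to 39. It was in 0.399% of all windows, and Slc10a2 was the only gene among the 7 with a match. None of the other motifs searched was in this window.

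Slc10a2: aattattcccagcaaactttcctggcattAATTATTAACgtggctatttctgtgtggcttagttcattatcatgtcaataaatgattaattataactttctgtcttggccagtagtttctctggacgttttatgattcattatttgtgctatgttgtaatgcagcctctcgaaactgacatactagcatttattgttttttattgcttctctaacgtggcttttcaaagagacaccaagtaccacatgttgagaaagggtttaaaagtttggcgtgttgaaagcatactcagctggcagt

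Because Slc10a2 is best known from other epithelia, their markers are given beside it. Of 16 markers of bile ducts and gallbladder, 14 were analysed, 6 of them with a mean under 1, and none of the 8 tested passed at any dose in limma (2, 2 and none had an unadjusted p under 0.05 in order of dose). Between doses, 1 of the 8 passed in each of the comparisons in which Slc10a2 did, Krt19, which was lower at 15 than at 1.5 mg/kg (-0.89, adjusted p = 0.043), and Sox9, which was higher at 150 than at 15 mg/kg (0.49, adjusted p = 0.044), both opposite in sign to Slc10a2. Their summed value ran from 19.9 to 179.6 in controls, 26.3 to 96.2 at 1.5, 19.4 to 294 at 15 and 20.2 to 70.0 at 150 mg/kg, with medians of 30.8, 36.3, 36.8 and 33.4. The defining keratin Krt19 had medians of 0.97, 1.02, 0.97 and 1.03, about 1 step above 0, and Krt7 and Cldn4 had medians of 0 in every group. Krt19 was 0 in 1 of 13 mice at 1.5 and in 6 of 13 at 15 mg/kg. Its highest values there were 15.7 and 1.90. Of 7 ileal markers, 4 were analysed. Fabp6, which defines ileal enterocytes, was 0 in every mouse but 1 at 15 mg/kg (2.01). Of the 2 that were tested, Apoa4, which hepatocytes also express, fell by 1.79 at 150 mg/kg against control (SE 0.40, adjusted p = 0.0072) and was also lower than at 15 mg/kg (-1.18, adjusted p = 0.035), as Slc10a2 was. At 15 mg/kg, however, Apoa4 lay below control and below 1.5 mg/kg, where Slc10a2 lay above both, and neither of these Apoa4 differences passed. The other of the 2, Fabp2, the intestinal fatty acid binding protein, did not pass against control (-0.44, 0.35 and 0.04 in order of dose). It was higher at 15 than at 1.5 mg/kg (249 ± 104 against 141 ± 47.0, SD, n = 13 each; 0.78, adjusted p = 0.00023), with the sign of Slc10a2. In these groups Fabp6 was 0 in 12 of 13 mice at 15 and in 13 of 13 at 1.5 mg/kg. Fabp2, Sox9 and the comparisons between doses of these markers were chosen after their values were seen. The 6 kidney tubule markers listed were not analysed here. The part of these cells in the Slc10a2 values was not tested, and in whole liver fewer cells of a type and less RNA per cell cannot be told apart. The hepatocyte marker Alb had medians between 19547 and 20888 in the 4 groups.

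Abcb11 (chromosome 2, 69238282 to 69342616, minus strand), the bile salt export pump, did not pass against control at any dose. The lowest, median and highest values were 32.1, 44.9 and 65.9 in controls and 31.3, 40.2 and 60.9 at 1.5 mg/kg. They were 40.1, 53.3 and 78.5 at 15 and 29.8, 46.3 and 63.3 at 150 mg/kg. The differences from control of -0.11, 0.21 and -0.02 did not pass (adjusted p = 0.76, 0.22 and 0.96). Between 15 (53.8 ± 11.4, SD, n = 13) and 1.5 mg/kg (43.5 ± 10.7, SD, n = 13) the difference of 0.31 (SE 0.11) passed with an adjusted p of 0.039, with 12 of 13 mice at 15 above the median of the lower dose. This call was lost without any 1 of 11 mice, replicates 1, 3, 4, 6, 9, 10 and 13 at 1.5 and 3, 6, 8 and 11 at 15 mg/kg, where the difference lay between 0.26 and 0.31. It was also lost under 8 of 15 other settings with a test (0.21 to 0.35, adjusted p between 0.0501 and 0.21), among them those without the libraries of high ribosomal protein values (0.35, adjusted p = 0.084) and without those of small steps (0.21, adjusted p = 0.21). Genes named Gm13613 and Gm13614 overlap Abcb11 on the opposite strand and were not analysed here.

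The promoter of Abcb11 is shown because it holds the classic letters for FXR, an inverted repeat of AGGNCA with 1 base between the copies (N is any base). In its window (chr2:69342567-69342866, minus strand) the capitals mark this repeat, at bases 188 to 200. It was in 0.0883% of all windows and in 2 of the 7 genes, Abcb11 and Slco1b2.

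Abcb11: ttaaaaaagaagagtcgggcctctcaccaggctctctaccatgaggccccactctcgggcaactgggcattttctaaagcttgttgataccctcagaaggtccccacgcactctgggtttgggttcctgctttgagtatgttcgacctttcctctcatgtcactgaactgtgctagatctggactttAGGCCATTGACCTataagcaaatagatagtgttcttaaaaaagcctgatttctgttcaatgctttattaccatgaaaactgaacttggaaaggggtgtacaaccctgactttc

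Abcb4 (chromosome 5, 8893717 to 8959231, plus strand), the phosphatidylcholine flippase, was the second highest of the 10 genes and had its lowest mean at 15 mg/kg. The lowest, median and highest values were 140.3, 387 and 692 in controls and 354, 508 and 631 at 1.5 mg/kg. They were 157, 277 and 435 at 15 and 250.5, 431 and 627 at 150 mg/kg. All 13 mice at 15 lay below the median of the 1.5 mg/kg group and 9 of them below its lowest mouse, while 10 of 13 lay below the control median and none below the lowest control. The mean was 292 ± 89.2 (SD, n = 13) at 15 and 396 ± 121 (SD, n = 14) in controls, a difference of -0.43 (SE 0.15), which passed (adjusted p = 0.041). Against 1.5 mg/kg, with a mean of 504 ± 81.4 (SD, n = 13), the difference was -0.83 (SE 0.15, adjusted p = 7.5e-05). With a mean at 150 mg/kg of 433 ± 97.3 (SD, n = 14), the gene was 0.60 above 15 mg/kg (SE 0.15, adjusted p = 0.0029). At 1.5 and 150 mg/kg the differences from control were 0.40 and 0.16 (adjusted p = 0.21 and 0.67).

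The call of Abcb4 at 15 mg/kg against control was lost in 14 of 54 fits that left out 1 mouse, without control replicates 3, 6, 8, 9, 11, 13 or 14 or without replicates 2, 4, 5, 6, 7, 8 or 9 of that dose (-0.43 to -0.36). It was also lost without the 6 libraries of small steps (-0.32, adjusted p = 0.18) and without the least correlated mouse of each group (-0.40, adjusted p = 0.076). The same held with no filter on low values, in a fit of only the 2 groups and with array quality weights (adjusted p = 0.071, 0.12 and 0.099, limma). Of 16 settings that did not leave out mice 1 at a time, 1 of them without a test, it passed in 7. The calls against 1.5 and against 150 mg/kg were kept in all 54 fits that left out 1 mouse. A gene named Gm17936 overlaps Abcb4 on the same strand and was listed between 0 and 0.94. The window before Abcb4 (chr5:8893471-8893770, plus strand) is shown because the gene passed in 3 comparisons. It held none of the 6 motifs searched, which were those named above, the STAT5 letters TTCNNNGAA (8.3% of all windows, and in those of Slc10a1 and Slco1b2) and a direct repeat of AGGNCA with 1 base between the copies, bound by PPAR with RXR (0.381% of all windows and none of the 7 genes).

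Abcb4: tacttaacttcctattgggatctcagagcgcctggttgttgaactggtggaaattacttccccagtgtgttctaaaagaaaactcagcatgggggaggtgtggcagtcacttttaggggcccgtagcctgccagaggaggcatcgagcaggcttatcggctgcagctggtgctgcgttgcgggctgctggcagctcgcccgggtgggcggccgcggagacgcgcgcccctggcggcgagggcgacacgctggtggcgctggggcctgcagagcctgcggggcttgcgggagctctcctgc

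The values of Abcb4 moved with the summed value of the ribosomal protein genes. The 6 mice at 15 mg/kg with a sum above 18000 had Abcb4 values between 157 and 266, and the 7 others had values between 277 and 435. The only control above 18000 was also the lowest control, at 140.3, and the only such mouse at 150 mg/kg was the lowest of its group, at 250.5. Without these 8 libraries the difference at 15 mg/kg was -0.20 against control (adjusted p = 0.38), -0.50 against 1.5 mg/kg (adjusted p = 0.013), and 150 was 0.32 above 15 mg/kg (adjusted p = 0.11). With the log2 sum as a covariate, the difference from control was -0.00 (adjusted p = 0.999), and those from 1.5 and 150 mg/kg did not pass (adjusted p = 0.11 and 0.44).

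**Figure D3:**
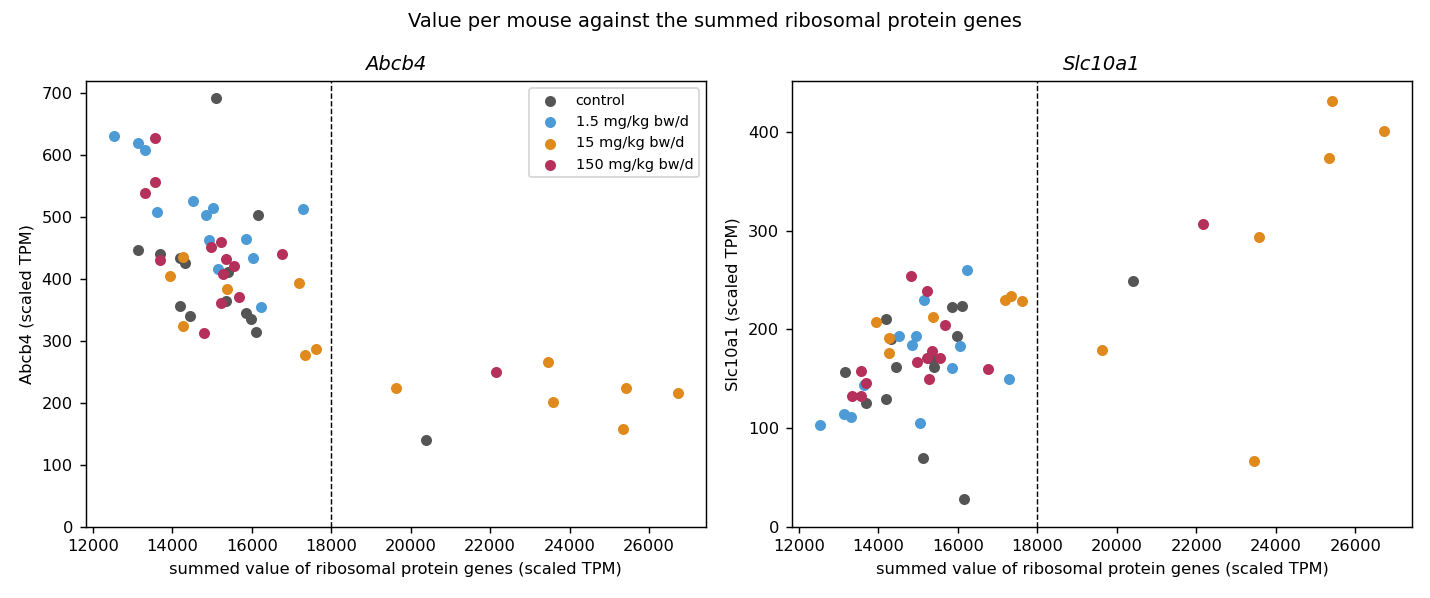
Value of Abcb4 and of Slc10a1 in each mouse (scaled TPM) against the summed value of the ribosomal protein genes (scaled TPM), by dose group, with a dashed line at 18000. The 8 mice to the right of the line include 6 of 13 at 15 mg/kg, and all 8 have Abcb4 values of 266 or less.

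Since the mice formed separate clusters by this sum, correlations with it were taken over the 46 mice below 18000, with group means removed. Over them Abcb4 fell with the sum (Pearson r = -0.51, adjusted p = 0.0023 and Spearman rho = -0.56, adjusted p = 0.00075; permutation tests within groups, adjusted over the 10 genes; r = -0.45 without the 2 mice farthest from the median sum). Cyp8b1 also fell with it (r = -0.53, adjusted p = 0.0023, rho = -0.575, adjusted p = 0.00075, r = -0.46 without those 2 mice; permutation tests) and Cyp7b1 rose with it (r = 0.48, adjusted p = 0.0058, rho = 0.53, adjusted p = 0.0014, r = 0.38 without them; permutation tests). For Slc10a1 and Cyp27a1 the rank correlation passed and Pearson's did not (rho = 0.40, adjusted p = 0.012, r = 0.21, adjusted p = 0.27 and rho = 0.37, adjusted p = 0.032, r = 0.32, adjusted p = 0.092; permutation tests). For Slc10a2 the values were r = -0.03 and rho = 0.05 (adjusted p = 0.87 and 0.77; permutation tests). For Slco1b2 they were r = 0.03 and rho = 0.07 (adjusted p = 0.87 and 0.71; permutation tests). Over all 54 mice Slco1b2 had a rho of -0.44 (adjusted p = 0.015, permutation test). At 15 mg/kg its mean was 835 ± 270 (SD, n = 6) above a sum of 18000 and 1431 ± 103 (SD, n = 7) below it. With the summed value of the mitochondrially encoded genes, 4 of the 10 genes had a rank correlation over all 54 mice that passed, Slco1b2 (rho = 0.42, r = 0.56), Baat (rho = 0.37, r = 0.55), Abcb11 (rho = 0.37, r = 0.42) and Cyp7b1 (rho = 0.34, r = 0.48; adjusted p between 0.015 and 0.038 for rho and between 0.0016 and 0.0049 for r, permutation tests over 20 relations). Without the 2 mice farthest from the median sum, r was 0.37, 0.23, 0.34 and 0.28 in that order, and without the 6 libraries of small steps rho lay between 0.07 and 0.22. For neither sum was the share of all genes that pass taken.

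Mice that were high in 1 of the genes were often high or low in others. After removal of the group means, 18 of the 45 pairs of genes were correlated over the 54 mice (Spearman, adjusted p under 0.05, permutation within groups), 11 of them positively and 7 negatively, and 25 were by Pearson's r. By rho the strongest was negative: mice with more Slc10a1 had less Abcb4 (rho = -0.74, r = -0.61, adjusted p = 0.00015 for rho; r = -0.77 without the 2 mice farthest from the median of Slc10a1; permutation test). It was negative within each group, with rho of -0.88 in controls, -0.81 at 1.5, -0.55 at 15 and -0.76 at 150 mg/kg, and -0.73 over the 46 mice with low ribosomal protein sums.

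Cyp27a1, Cyp7b1 and Slc10a1 were correlated with each other: rho was 0.67 for Cyp27a1 and Cyp7b1, 0.67 for Cyp27a1 and Slc10a1 and 0.62 for Cyp7b1 and Slc10a1 (r = 0.73, 0.74 and 0.65; all adjusted p at most 0.000225, permutation tests). Cyp27a1 and Cyp7b1, the pair of the alternative route, had a rho of 0.74, 0.81 and 0.61 in controls, at 1.5 and at 15 mg/kg, and of 0.06 at 150 mg/kg, a difference between groups that was not tested. Without the 6 libraries of small steps, rho over all groups was 0.51, 0.55 and 0.40 for these 3 pairs. Abcb11 was correlated with both enzymes (rho = 0.53 with Cyp27a1 and 0.49 with Cyp7b1; adjusted p = 0.0009 and 0.0029, permutation tests). Baat went with Slco1b2 (rho = 0.55, adjusted p = 0.00054, permutation test) and, without the 6 libraries, at a rho of 0.41.

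The enzymes of the classic route, Cyp7a1 and Cyp8b1, went together (rho = 0.45, r = 0.44, adjusted p = 0.0042 for rho, permutation test; r = 0.44 without the 2 farthest mice), with a rho between 0.24 and 0.54 in the 4 groups. Cyp8b1 went against Abcb11 (rho = -0.38, adjusted p = 0.020, permutation test). Slc10a2 had only negative correlations among those that passed, with Cyp7b1, Baat and Slco1b2 (rho between -0.35 and -0.34, adjusted p between 0.034 and 0.038, permutation tests), and without the 6 libraries of small steps they lay between -0.17 and -0.15.

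**Figure D4:**
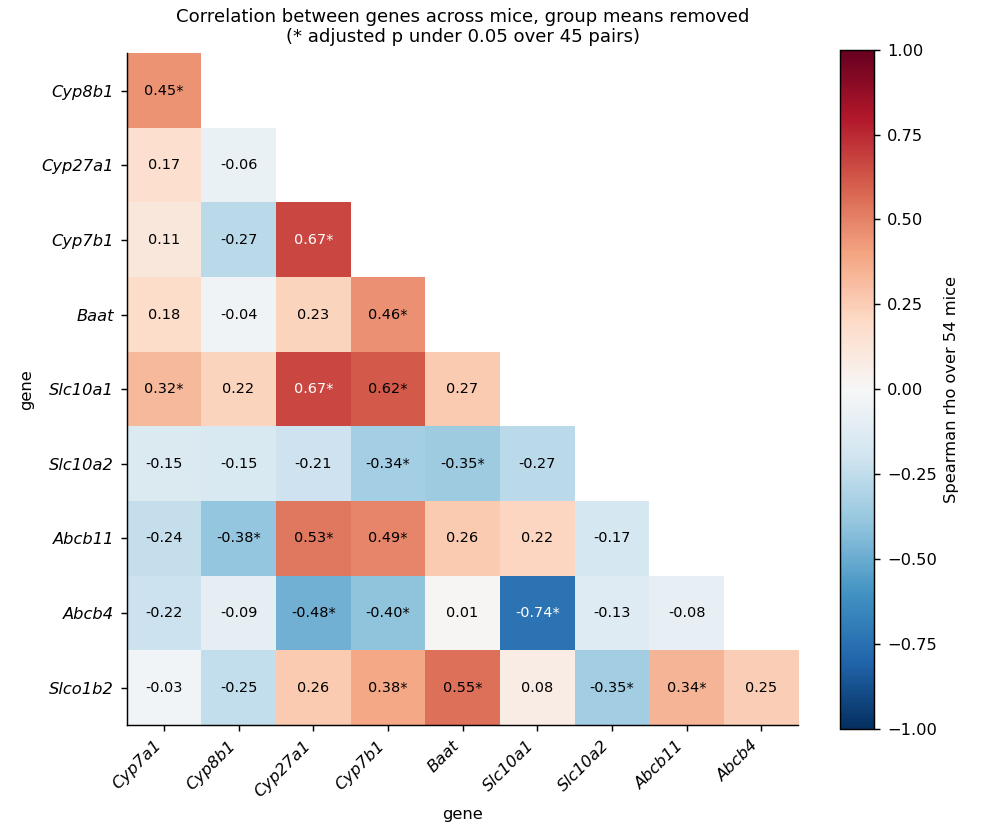
Spearman's rho between each pair of the 10 genes over 54 mice, with group means removed. Color runs from -1 (blue) to 1 (red) and stars mark an adjusted p under 0.05 over 45 pairs. The strongest positive cells join Cyp27a1, Cyp7b1 and Slc10a1 (0.62 to 0.67), and the strongest negative cell is Slc10a1 with Abcb4 (-0.74).

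As a description with no test, genes of the whole table whose values closely followed each gene over the 54 mice (Spearman, group means removed) included the following. Cyp7b1 was followed most closely, by Hsd3b5 (rho = 0.92), Cyp2c54 (0.91) and Mup12 (0.89). Slc10a1 was followed by Sult2a8 (0.86), Adh5 (0.84) and Nit2 (0.82), and Cyp27a1 by Cyp4f14 (0.79), Nudt7 (0.75) and Mup3 (0.74). Among the genes nearest to Slco1b2 were Cyp2d13 (0.80) and Nfix (0.78), and among those nearest to Baat were Hyou1 (0.64) and Tuba4a (0.60). For Abcb4 the nearest was Iqsec1 (0.80), for Abcb11 Cyp4v3 (0.81), for Cyp8b1 Miga2 (0.71) and for Slc10a2 Cxadr (0.59). Cyp7a1 was followed by Plpp3 (0.62), by the clock gene Per2 (0.58) and by the FXR gene Nr1h4 (0.57). All 54 mice share the authors' scaling, which enters every one of these values.

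Other genes of bile acid synthesis came from a list of 21, of which 19 were tested, and all that passed against control were higher. At 15 mg/kg, 5 of 19 passed and all 5 were higher (7.57% of all genes tested passed as higher), with a list median of 0.19. They were Akr1c14 (0.75, adjusted p = 7.2e-05) and Akr1d1 (0.52, adjusted p = 0.0024), which reduce the steroid ring and its ketone, Cyp2a12 (0.39, adjusted p = 0.015), a bile acid hydroxylase, and the CoA ligases Slc27a5 (0.41, adjusted p = 0.020) and Slc27a2 (0.31, adjusted p = 0.029). At 150 mg/kg, 2 of 19 passed and both were higher (1.49% of all genes), with a list median of 0.09: Slc27a2 (125 ± 11.7 against 85.4 ± 12.3, SD, n = 14 each; 0.56, adjusted p = 0.00020) and Abcd3 (0.42, adjusted p = 0.0034), a peroxisomal transporter of bile acid precursors. The paper groups Slc27a2 with fatty acid transport and Abcd3 with membrane proteins of peroxisomes. The other 17 did not pass, among them Akr1d1 (0.04), Slc27a5 (0.03) and Cyp2a12 (-0.26). At 1.5 mg/kg none passed in limma and 2 had an unadjusted p under 0.05. The genes of this and the following lists are given for the main fit only, where 6 of 13 libraries at 15 mg/kg had high ribosomal protein values. Over all genes, 1621 passed at 15 mg/kg in that fit. Without the 8 libraries of high ribosomal protein values 607 did, and with that sum as a covariate 535.

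Among 7 other exporters and flippases of the canaliculus, Abcg5 (0.39, adjusted p = 0.011), a subunit of the sterol exporter, and Tmem30a (0.29, adjusted p = 0.0059), a flippase subunit, were higher at 15 mg/kg (7.57% of all genes passed as higher there, and 1.49% at 150 mg/kg). Abcg2, the breast cancer resistance protein, was higher at 150 mg/kg (81.4 ± 12.6 against 58.8 ± 10.0, SD, n = 14 each; 0.46, adjusted p = 0.0012). None of the 5 other uptake carriers, Slco1a1 among them, passed at any dose in limma, and 1, none and none had an unadjusted p under 0.05. Of 5 basolateral exporters 1 was tested, and it did not pass at any dose.

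**Figure D5:**
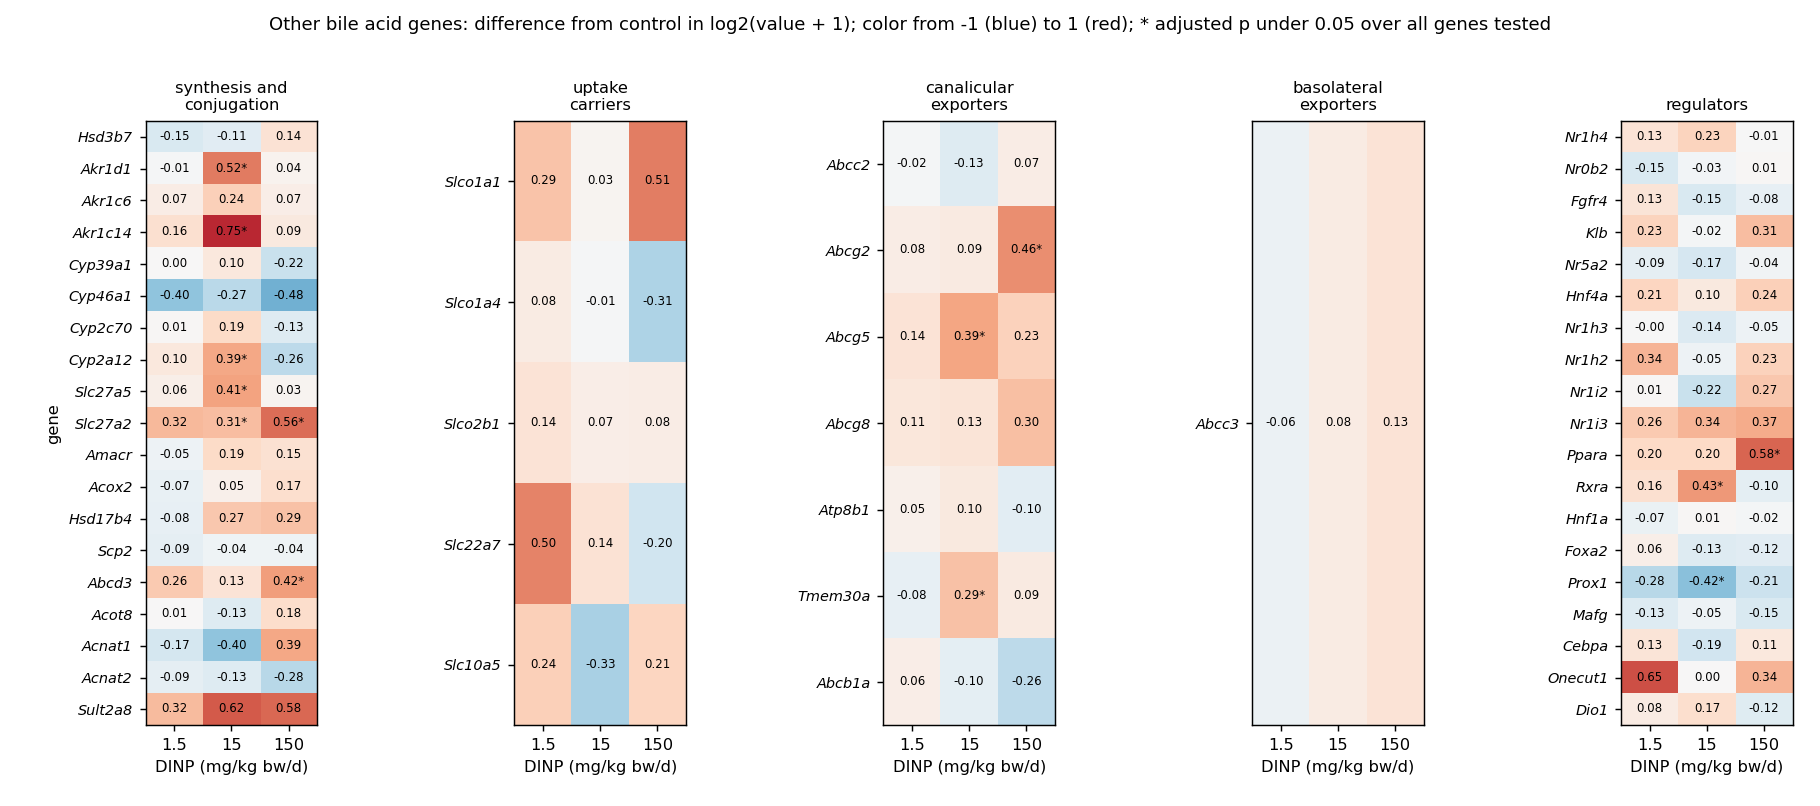
Difference from control in log2(value + 1) for the other tested genes of bile acid synthesis, transport and regulation, by dose. Color runs from -1 (blue) to 1 (red) and stars mark an adjusted p under 0.05. Stars at 15 mg/kg include Akr1c14 (0.75) and Rxra (0.43), and those at 150 mg/kg include Ppara (0.58) and Slc27a2 (0.56).

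Of 21 regulators, 19 were tested. The FXR gene Nr1h4 (0.13, 0.23 and -0.01 in order of dose, adjusted p = 0.60, 0.098 and 0.99) and its target Nr0b2 (-0.15, -0.03 and 0.01, adjusted p at least 0.80) did not pass. Neither did the receptor Fgfr4 (0.13, -0.15 and -0.08), its partner Klb (0.23, -0.02 and 0.31) or the LRH-1 gene Nr5a2 (-0.09, -0.17 and -0.04). Rxra, the partner of many nuclear receptors, was higher at 15 mg/kg (34.5 ± 5.06, SD, n = 13, against 25.3 ± 3.12, SD, n = 14; 0.43, adjusted p = 8.1e-05) and Prox1, a corepressor, was lower (-0.42, adjusted p = 0.0088). Ppara, the receptor for fatty acids, was higher at 150 mg/kg (194 ± 37.9 against 130.1 ± 29.1, SD, n = 14 each; 0.58, adjusted p = 0.0019).

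Some genes of other lists also passed at 15 mg/kg, where 14.2% of all genes tested passed and 7.57% passed as higher. Of 15 tested clock genes and clock outputs, 5 were higher there: Usp2 (1.37, adjusted p = 0.0090), Dbp (1.00, adjusted p = 0.013), Noct (0.86, adjusted p = 0.028), Per3 (0.75, adjusted p = 0.0056) and Nr1d2 (0.42, adjusted p = 0.0016). None of them passed at 1.5 or 150 mg/kg in limma (1 had an unadjusted p under 0.05 at each). Of 12 periportal genes, 3 were higher at 15 mg/kg, Pigr (0.68, adjusted p = 0.00074), Hsd17b13 (0.39, adjusted p = 0.028) and Arg1 (0.34, adjusted p = 0.0016), and of 12 pericentral genes 2 were, Rgn (0.38, adjusted p = 0.012) and Lect2 (0.33, adjusted p = 0.020). The part of these lists in the values of the bile acid genes was not tested. Of 9 tested hepatocyte markers, Ttr was higher (0.42, adjusted p = 0.023) and Fgb lower (-0.27, adjusted p = 0.036), and of 7 sinusoidal endothelial markers Pecam1 was lower (-0.52, adjusted p = 0.00087). No Kupffer cell marker (8 tested) and no stellate cell marker (6 tested) passed against control at any dose in limma (at most 1 in each list had an unadjusted p under 0.05 in a comparison with control). The pericentral gene Gulo was lower at 150 mg/kg (-0.37, adjusted p = 0.049).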

How the data were processed

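Per the labels and the study's methods, total RNA was made into QuantSeq 3′ mRNA-Seq V2 FWD libraries, and the authors ran nf-core/rnaseq (STAR, RSEM, Salmon) on GRCm38. The authors deposited 1 table of 54 columns of signal values that they had scaled between samples. Within each sample the values were whole multiples of 1 step (0.764 to 1.11, tolerance 0.01), and the whole numbers summed to between 948342 and 980641, so they were read as rounded TPM times a scaling factor, not counts. Rows with a mean of at least 1 (11431) were fitted with limma 3.58.1 (R 4.3.3; lmFit, eBayes with a trend) on log2(value + 1), all 4 groups in 1 fit. Correlations used group residuals and 100000 resamples (Python 3.11.15). The fits were tested on simulated data. The genes named are the 10, the genes of other lists that passed against control (at most 5 a list), 5 regulators and the nearest genes by rank correlation, of which 1 is not reported here. The 10 genes and the lists were chosen with earlier results of these data known. Positions are from GENCODE M21 and promoters from RefSeq GRCm38.p6, which held 7 of the 10 genes. Samples are separate mice, whose cages, dates and order of handling are not given in the sources used here.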

Additional observations from a re-analysis of the deposited data

Results flagged for a closer look

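In a direct test between doses (limma, adjusted p under 0.05), 3 of the 10 genes differed between 15 and 1.5 mg/kg, where 21.4% of all genes did, and 3 of 10 between 150 and 15 mg/kg, where 20% did, so neither share stands far from that of all genes. Between 15 and 1.5 mg/kg, the difference on the log2(value + 1) scale was 0.53 for Slc10a2, 0.31 for Abcb11 and -0.83 for Abcb4. Between 150 and 15 mg/kg it was 0.83 for Cyp8b1, -0.96 for Slc10a2 and 0.60 for Abcb4. With the summed ribosomal protein value as a covariate, which was high in 6 of 13 libraries at 15 mg/kg, none of the first 3 passed (adjusted p = 0.17, 0.18 and 0.11), and of the second 3 only Slc10a2 did (-0.92, adjusted p = 0.00073). The Abcb11 call was also lost without any 1 of 11 mice. Against control, Slc10a2 had values of -0.16, 0.37 and -0.60 in order of dose, Abcb4 0.40, -0.43 and 0.16, and Cyp8b1 0.10, -0.51 and 0.32.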

How the results depend on the processing

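Of the values given for single genes under the alternatives, 26 lost a call, 14 gained one, 16 changed direction and 784 were counted as the same. Differences between group medians counted as the same if they lay less than 1 within-group SD from the main value. Their direction was checked for called genes only. Correlations were held to sign only, with no threshold. Of the counts, 88 stayed within 1.5 times and 20 did not. The alternatives without the 6 libraries of small steps, without the 8 of high ribosomal protein sums and with that sum as a covariate were chosen after seeing the data. The causes were not tested. At 15 mg/kg against control, 1 of the 10 genes passed, Abcb4. The count was 0 with no filter on low values, in a fit of only the 2 groups, with array quality weights and with the sum as a covariate. It was 2 with a mean of at least 5, without the least correlated mouse of each group and without the 8 libraries. In the last 2 of these settings Abcb4 did not pass. Between 15 and 1.5 mg/kg it was 1 with weights, 0 with the covariate and 1 without the 8 libraries, instead of 3. Between 150 and 15 mg/kg it was 5 without the least correlated mice, 1 with the covariate and 1 without the 8 libraries, instead of 3. At 150 mg/kg it was 0 against control without the 6 libraries, instead of 1, and 1 against 1.5 mg/kg with weights or without the 8 libraries, instead of 0. Across the 4 groups it was 4 without the least correlated mice and 1 with the covariate, instead of 2.

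Leaving out 1 mouse at a time, the count ran from 0 to 2 at 15 and from 0 to 1 at 150 mg/kg against control, was 0 throughout at 1.5 mg/kg, ran from 2 to 4 between 15 and 1.5, from 0 to 1 between 150 and 1.5 mg/kg and from 2 to 3 across groups, and was 3 throughout between 150 and 15 mg/kg. Slc10a1 at 15 mg/kg passed in 9 of these 54 fits (0.44 to 0.77), and Slc10a2 between 150 and 1.5 mg/kg passed without replicate 12 at 1.5 mg/kg alone (-0.53, adjusted p = 0.034, limma). Sign changes there were of uncalled values: Cyp7a1 (-0.11 to 0.20) and Cyp27a1 (-0.014 to 0.11) at 15, Abcb11 at 150 (-0.061 to 0.022), and Cyp27a1 (-0.028 to 0.080), Cyp8b1 (-0.027 to 0.20) and Slc10a1 (-0.082 to 0.16) at 1.5 mg/kg.

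The other sign changes were also of uncalled values. Taken between group medians, which have no test, differences that changed sign included Cyp8b1 at 1.5 (-0.38) and 150 mg/kg (-0.014) and Slc10a1 at 1.5 mg/kg (-0.049). With samples rescaled to the same sum, Cyp7a1 and Cyp27a1 were -0.0020 and -0.00258 at 15 mg/kg, and Abcb11 was -0.0099 between 150 and 1.5 mg/kg. With weights, Cyp8b1 and Slc10a1 were -0.042 and -0.028 at 1.5, Cyp7a1 -0.12 at 15 and Abcb11 0.018 at 150 mg/kg. Without the least correlated mice, Cyp8b1 and Slc10a1 were -0.095 and -0.032 at 1.5 mg/kg. Without the 6 libraries, Cyp8b1 and Slc10a1 were -0.29 and -0.019 at 1.5, Slc10a1 -0.0086 at 150 and Abcb11 -0.032 between 150 and 1.5 mg/kg. With the covariate, Cyp27a1 was -0.048 at 15 mg/kg. Without the 8 libraries, Cyp7a1 was -0.10 at 15 and Abcb11 0.048 at 150 mg/kg. Rescaling turned the split of all genes from 170 higher of 248 to 82 of 348 at 150, and from 865 of 1621 to 563 of 1504 at 15 mg/kg, moving the median by less than 0.1. Over all genes, the count at 15 mg/kg was 535 with the covariate and 607 without the 8 libraries.

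Replicate numbers did not pair the mice: deviations of the 79 same-numbered pairs had a mean correlation of -0.0025, and 12.7% were over 0.1. With the replicate block the count at 15 mg/kg against control was 0 and that at 150 mg/kg was 0 (Abcb4 -0.43, adjusted p = 0.057, and Slc10a2 -0.60, adjusted p = 0.052, limma), and Abcb11 between 15 and 1.5 mg/kg did not pass (0.31, adjusted p = 0.0501, limma). The planned count test was not run, because the values are not counts. The depth is unknown, and Slc10a2 and low Cyp7a1 values lie only a few steps above 0.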
